A study of Mus musculus with 4 samples.

Results

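The Hox, Tbx and Fox genes described here are 71 of the 17915 coding genes in the deposited table: 25 Hox, 10 Tbx and 36 Fox rows, taken by gene symbol from the Hoxa to Hoxd clusters, the numbered Tbx genes other than Tbx2, and the Foxa to Foxs subfamilies. They were read in sorted lung endothelial cells from mice. All mice carried Cdh5-CreER, aSMA-LSL-Dre and NR1 and had tamoxifen 5 times, and tissue was taken with TAC (transverse aortic constriction, which narrows the aorta) in place for 6 weeks. Cdh5, an endothelial gene, drives CreER. By the names of the alleles, the alpha smooth muscle actin gene (Acta2) drives Dre where Cre has acted, and NR1 is a reporter read as ZsGreen or as tdTomato. There were 2 tdTomato+ and 2 ZsGreen+ libraries, labelled biological replicates. The labels do not say whether each came from its own mouse, and no unoperated group is among the samples, so a p-value here reflects only how far these 4 libraries spread, which may be technical.

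Hox genes encode homeodomain factors laid out in 4 clusters, and in the embryo the genes at the low-numbered end of a cluster act nearer the head and those at the high-numbered end nearer the tail. Adult cells often keep the Hox combination of the place they came from. T-box (Tbx) and forkhead (Fox) factors are likewise used to pattern organs. Several of them work in the lung: Foxf1 in the capillary bed, Tbx4 in the lung mesenchyme, and Foxc1 and Foxc2 in arteries and lymphatic valves. FoxO factors are held out of the nucleus by Akt signalling and bear on endothelial quiescence.

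Libraries held 17050673 to 18574737 counts. All 11 endothelial markers checked were present in every library at 68.8 TPM or more, where TPM is abundance scaled for gene length and library size and so allows levels of different genes to be compared. Acta2, the recorded gene, stood at 281 and 450 TPM in tdTomato+ and at 62.1 and 70.6 TPM in ZsGreen+ libraries. Marker RNA of other cells was also present and differed between groups. The summed level of 12 fibroblast markers was 129 and 209 TPM in tdTomato+ against 44.3 and 53 TPM in ZsGreen+ libraries. Of these 12, 7 lay higher in both tdTomato+ libraries. The sum of 7 alveolar type 2 markers was 834 and 905 against 433 and 246 TPM, with 6 of 7 higher. The sum of 7 lymphatic markers was 415 and 593 against 408 and 637 TPM, yet 6 of the 7 lay lower in both tdTomato+ libraries and 3 passed the test described below. The exception, Lyve1, held most of the sum in each library, at 338 and 537 against 221 and 380 TPM with overlap. Macrophage markers were the most abundant of these, at 9086 and 4082 against 4059 and 988 TPM for 8 genes, most of it Lyz2, with 2 of 8 higher without overlap. Among endothelial classes, 6 venous markers summed to 711 and 844 against 311 and 335 TPM. Of these 6, 3 lay higher without overlap, Vwf, Vcam1 and Car8, and 0 lower, and Vcam1 and Car8 were called higher. The venous markers Nr2f2 and Ephb4 overlapped between groups, with Nr2f2 at 16.29 and 21.34 against 10.35 and 20.12 TPM. The 7 arterial markers summed to 701 and 966 against 760 and 869 TPM. Without overlap, 2 of them, Gja5 and Bmx, lay higher and 2 lay lower, and 0 were called. The 6 markers of the aerocyte type of capillary cell (aCap) summed to 128 and 133 against 203 and 235 TPM, with 5 of 6 lower without overlap and Prx called lower. No marker in these lists was at 0 in all 4 libraries. Over all genes tested, 19.9% lay higher and 18.2% lower in both tdTomato+ libraries without overlap.

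Of the 71 genes, 32 were expressed, taken as at least 1 TPM in both libraries of a group, which is 45.1% beside 65.7% of all rows. There were 13 of 25 Hox, 3 of 10 Tbx and 16 of 36 Fox rows among them, and 27 of the 32 reached 1 TPM in all 4 libraries. A count of 0 in all 4 libraries was found for 7 genes, among them Foxl2, Hoxc4, Hoxc5, Hoxd1, Tbx15 and Tbx18. In a single library a count of 0 allows up to 3 counts, or 0.158 to 0.190 CPM (counts scaled to library size after TMM factors), for counting error only. Another 22 genes had a count somewhere but never 10. Members of these families without a row, among them several high-numbered Hox genes, were not analysed here.

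Forkhead genes made up 74.8% to 78.6% of the summed TPM of the 71 genes, T-box genes 6.6% to 10.1% and Hox genes 13% to 15.1%. Just 3 genes, Foxf1, Foxp1 and Tbx3, held 54.6% to 63% of it. The mean TPM of Foxf1 exceeded that of 96% of all rows, and that of Hoxa5, the highest Hox gene, was at the 75.5 percentile. The plot of expressed genes by family shows how far the forkhead genes extend above the other families.

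**Figure D1:**
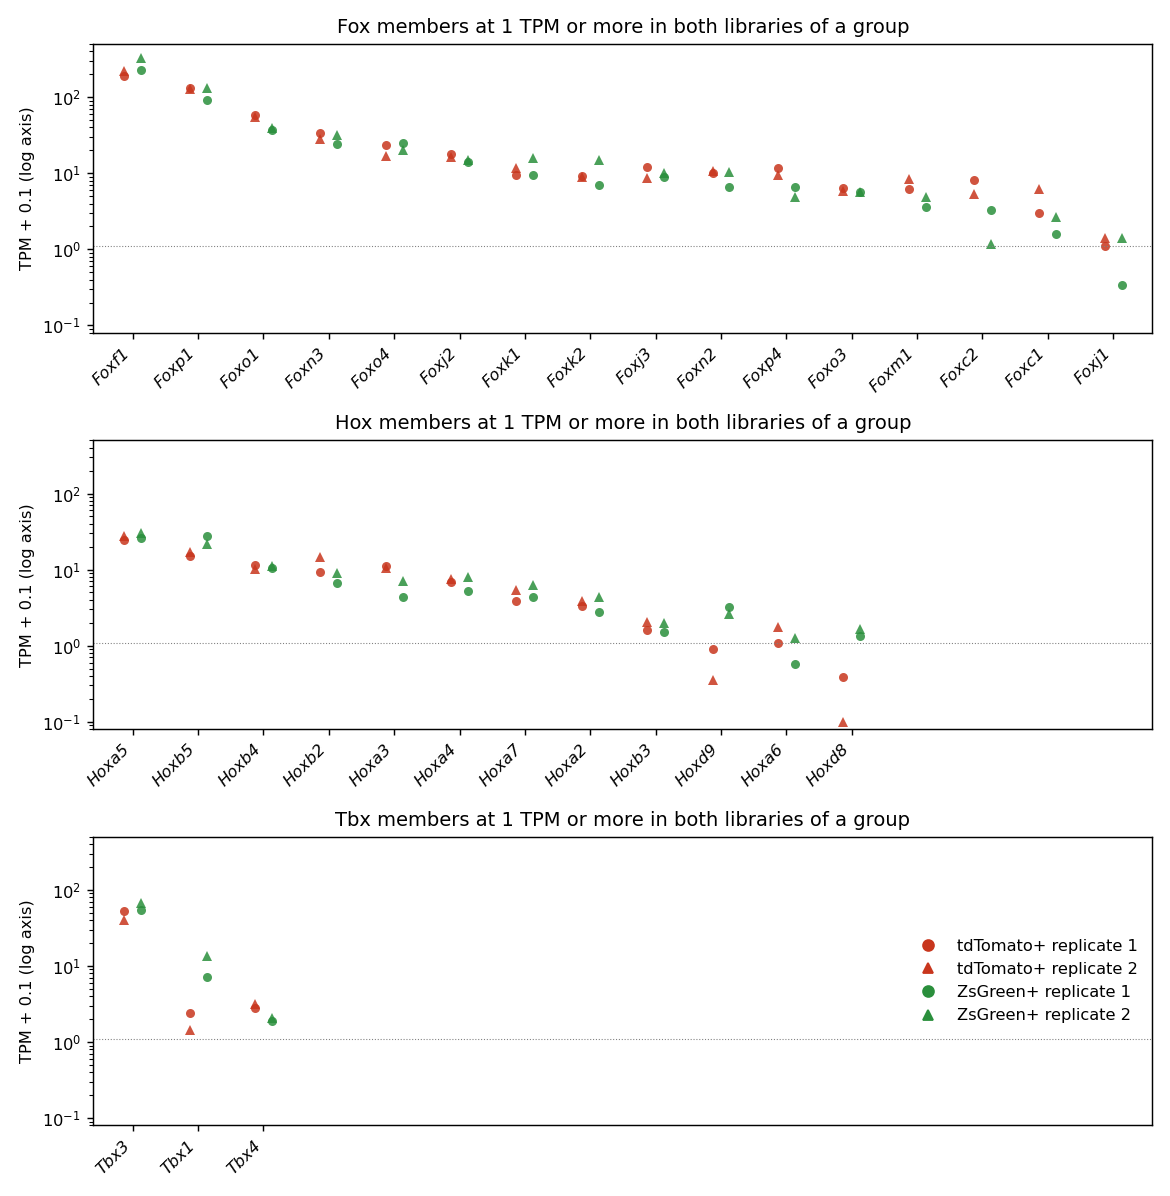
TPM plus 0.1 (log axis) of expressed genes in each of the 4 libraries, by family and ordered by mean; the dotted line marks 1 TPM. Foxf1, Foxp1 and Tbx3 lead, and Hoxd9, Hoxd8 and Tbx1 are the genes whose tdTomato+ points sit farthest below the ZsGreen+ points.

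No gene of the 3 families passed the edgeR test between the groups. Counts of all genes were compared with edgeR's quasi-likelihood F-test, with p-values adjusted over the 13177 genes that passed a filter on low counts, and 40 genes (0.304%) were called at an adjusted p under 0.05. Of the 71 genes, 40 passed the filter and 0 were called. The smallest adjusted p among them was 0.0915, that of Tbx1. At an unadjusted p under 0.05 there were 11, namely 4 higher and 7 lower in tdTomato+ cells, beside 8.77% of all genes tested. DESeq2 called 1 of them, Tbx1, beside 2.5% of genes tested, and limma-voom called 0.

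The 40 tested genes split evenly about 0, with 20 log2 fold changes (tdTomato+ over ZsGreen+) above and 20 below. Their median was 0.00 beside -0.01 over all genes tested, and 18 of them (45%) lay within 0.5 of 0, beside 77.6% of all genes tested. The tdTomato+ libraries both exceeded both ZsGreen+ libraries in CPM for 11 genes, beside 19.9% of genes tested, and both lay below for 10, beside 18.2%. The median was -0.14 for 14 Hox, 0.50 for 5 Tbx and 0.06 for 21 Fox genes. Some genes passed the filter only because of the group in which they were high: Foxd2, Hoxd4 and Hoxd8 through the ZsGreen+ and Foxl1 and Tbx6 through the tdTomato+ libraries. These had to differ between groups to be tested, so the counts above describe the tested genes and not the 71.

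**Figure D2:**
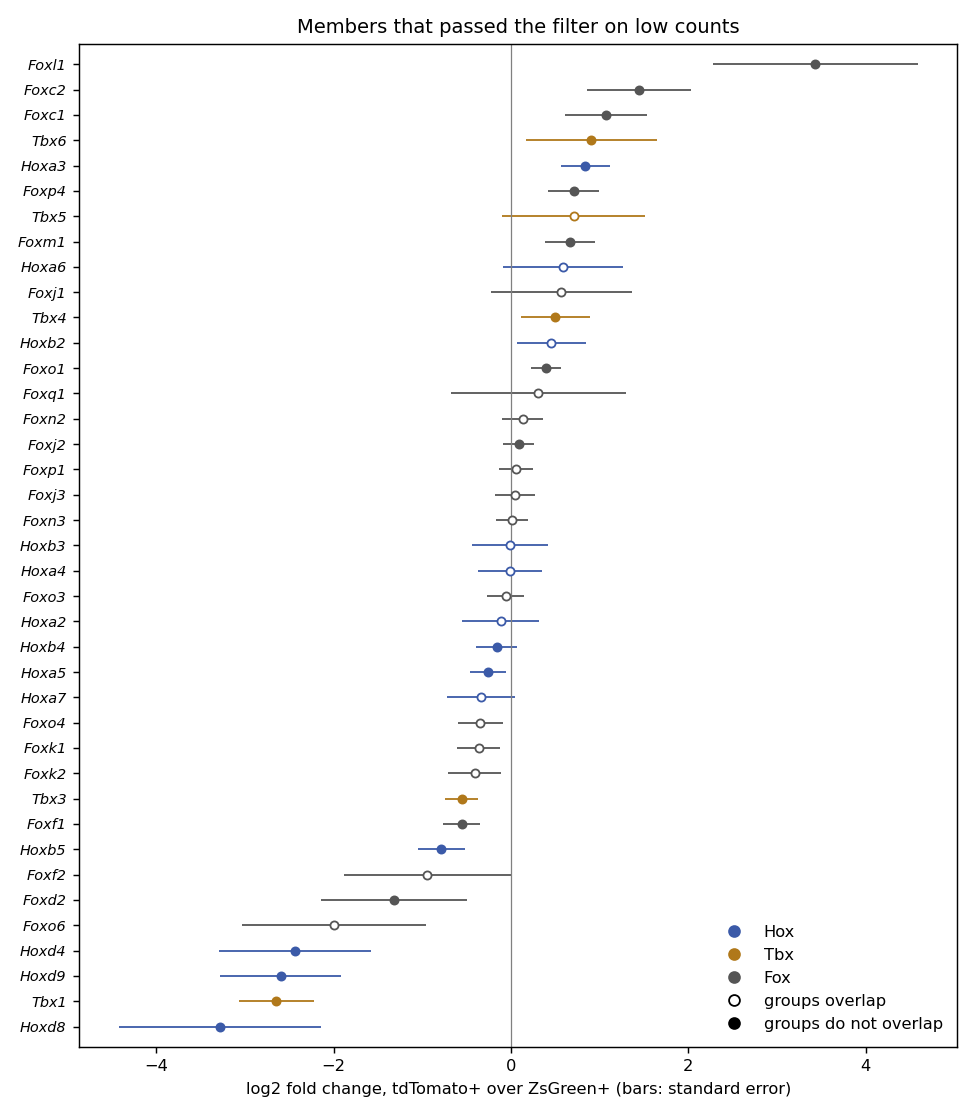
Log2 fold change, tdTomato+ over ZsGreen+, with its standard error (edgeR) for genes that passed the filter on low counts; filled points mark genes whose groups do not overlap in CPM. Values spread to both sides of 0. Tbx1 and the 3 Hoxd genes lie between -2.43 and -3.28 and Foxl1 at 3.43.

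Hoxa and Hoxb genes carried nearly all Hox RNA in both groups. Rows numbered 2 to 5 held 87.4% to 90.6% of the summed Hox TPM in each library, and the 2 genes numbered 5 that were expressed, Hoxa5 and Hoxb5, held 43.1% to 55.2%. Hoxc rows were at 0 but for 1 count of Hoxc8 in ZsGreen+ replicate 1. In both clusters the level was highest at number 5. Paralogue numbers follow the order of the genes along a cluster, and levels were uneven along it. By mean TPM over the 4 libraries, Hoxa6 stood at 1.07 and Hoxa7 at 4.87. Hoxb3 stood at 1.68, between Hoxb2 at 9.82 and Hoxb4 at 10.79. The Hoxa rows end at number 7, so the shares describe only the rows analysed and set no upper limit to the Hoxa levels.

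**Figure D3:**
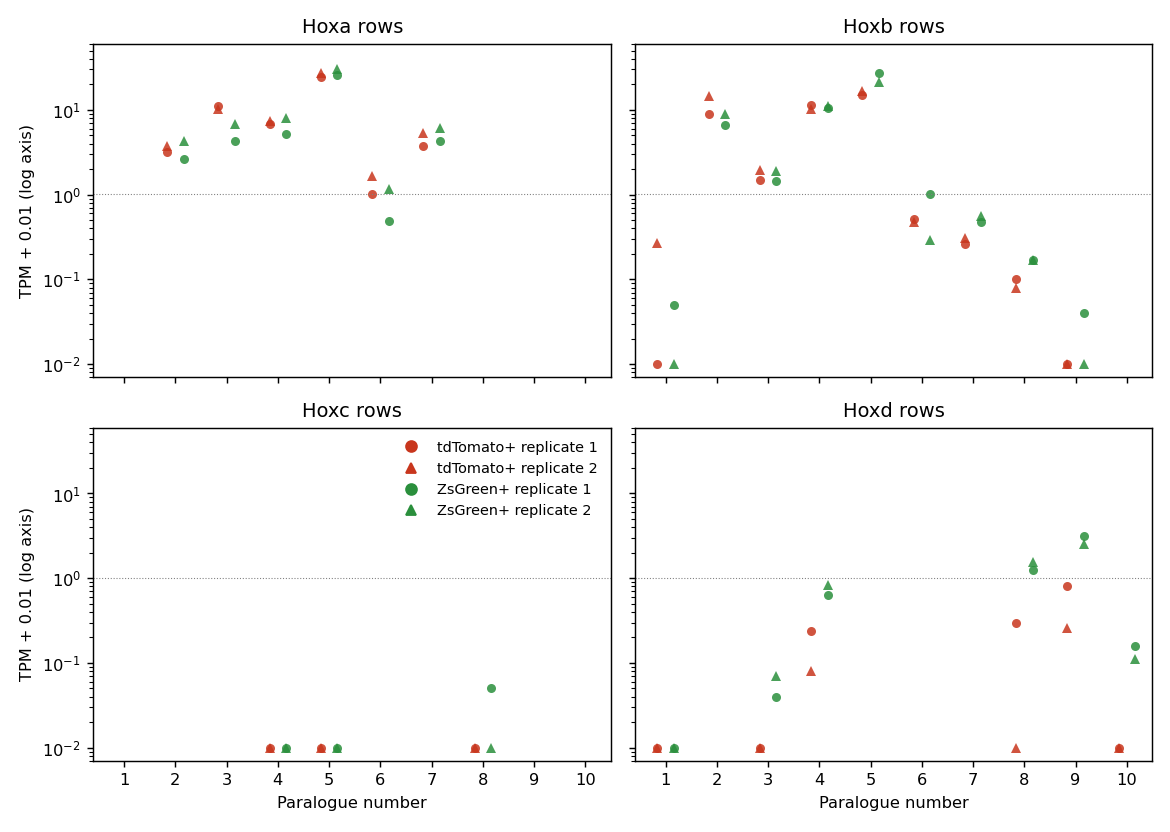
TPM plus 0.01 (log axis) of Hox rows by paralogue number, 1 panel per cluster, with points for the 4 libraries; the dotted line marks 1 TPM. Levels peak at number 5 in Hoxa and Hoxb, and ZsGreen+ points lie above tdTomato+ points for Hoxd4, Hoxd8 and Hoxd9.

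Hoxa5, which lung and airway development requires, stood at 24.75 and 27.22 TPM in tdTomato+ and 25.55 and 30.61 TPM in ZsGreen+ libraries. Hoxb5, which takes part in airway branching, stood at 15.04 and 16.76 TPM against 27.21 and 21.47 TPM. The groups overlapped for Hoxa5 in TPM, though not in CPM, and for Hoxb5 in neither. Hoxb5 had a log2 fold change of -0.78 (SE 0.27, edgeR adjusted p = 0.431). Hoxa5 thus made up 62.2% and 61.9% of the TPM of this pair in tdTomato+ cells and 48.4% and 58.8% in ZsGreen+ cells.

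Hoxa3, which has been studied in angiogenesis and wound repair, stood at 11.04 and 10.38 TPM in tdTomato+ cells and at 4.3 and 6.89 TPM in ZsGreen+ cells. Both tdTomato+ libraries lay above both others, with a log2 fold change of 0.84 (SE 0.28, edgeR adjusted p = 0.404). In the RefSeq annotation of GRCm38 the span of Hoxa3, positions 52169059 to 52213067 of chromosome 6, contains Hoxa4, Hoxa5 and Hoxa6 and several noncoding genes. No source used here states a strand setting, so reads of these genes cannot be told apart by strand. Hoxa4 stood at 6.85 and 7.4 TPM against 5.16 and 7.95 TPM, with overlapping groups. Hoxa6 stood at 1 and 1.65 TPM against 0.48 and 1.15 TPM, again overlapping.

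Hoxa2, which patterns the second pharyngeal arch, stood at 3.21 and 3.73 TPM in tdTomato+ and 2.66 and 4.23 TPM in ZsGreen+ cells. Hoxa7 stood at 3.76 and 5.29 TPM against 4.28 and 6.16 TPM. The groups overlapped for both.

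In the Hoxb cluster, Hoxb2 stood at 9.06 and 14.54 TPM in tdTomato+ and 6.65 and 9.04 TPM in ZsGreen+ cells. Hoxb4, best known for its effect on blood stem cells, stood at 11.41 and 10.14 TPM against 10.51 and 11.11 TPM. Hoxb3, whose span contains Hoxb4, stood at 1.49 and 1.93 TPM against 1.42 and 1.88 TPM. In CPM the groups overlapped for Hoxb2 and Hoxb3, while Hoxb4 was lower in both tdTomato+ libraries, at 16.7 and 15.6 against 19 and 17 CPM. In TPM the groups of Hoxb4 overlapped. Beyond number 5 the cluster was low: Hoxb6, Hoxb7, Hoxb8 and Hoxb9 stayed at or under 1.01 TPM in every library.

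The Hoxd cluster contributed little RNA, most of it in ZsGreen+ cells. Its 6 rows together held 29 and 8 counts in tdTomato+ and 120 and 113 counts in ZsGreen+ libraries, or 1.44% and 0.313% of the summed Hox TPM against 5.41% and 4.65%. Hoxd9 stood at 0.8 and 0.25 TPM in tdTomato+ and at 3.12 and 2.49 TPM in ZsGreen+ cells, on 17 and 6 counts against 72 and 56. The groups lay apart, at a log2 fold change of -2.60 (SE 0.69, edgeR adjusted p = 0.274). Without tdTomato+ replicate 2 it was -1.99 and without tdTomato+ replicate 1 it was -3.57, with edgeR adjusted p of 0.943 and 0.442.

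Hoxd8, a factor described in lymphatic endothelium and named here after its values were seen, had 6 and 0 counts in tdTomato+ and 26 and 30 counts in ZsGreen+ libraries. That gave a log2 fold change of -3.28 (SE 1.14, edgeR adjusted p = 0.444), which was -2.27 without tdTomato+ replicate 2, the library with a count of 0, and has no usable size without tdTomato+ replicate 1. Hoxd4, also named after its values were seen, had 6 and 2 counts against 18 and 23, with a log2 fold change of -2.43 (SE 0.86, edgeR adjusted p = 0.453). It was -1.82 without tdTomato+ replicate 2 and -3.43 without tdTomato+ replicate 1. All 3 were thus lower in both tdTomato+ libraries, at counts where a few reads move the ratio. Hoxd4 and Hoxd8 passed the filter on low counts only through the ZsGreen+ libraries. Their direction was therefore fixed once they were tested and cannot count as support for that of Hoxd9. The other rows of the cluster, Hoxd1, Hoxd3 and Hoxd10, never held over 3 counts. The lymphatic markers Reln, Mmrn1 and Thy1 were lower beside them, with log2 fold changes of -3.20, -3.10 and -2.96 (edgeR adjusted p = 0.0465, 0.0432 and 0.0304), and their part in the Hoxd values was not tested. In bulk libraries, fewer cells of a type and less RNA per cell cannot be told apart.

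Tbx1 had the smallest p of the 71 genes. It is the T-box gene of the chromosomal region deleted in DiGeorge syndrome, is needed for the pharyngeal arch arteries and takes part in lymphatic vessel development. It stood at 2.3 and 1.34 TPM in tdTomato+ and at 7.15 and 13.34 TPM in ZsGreen+ libraries, or 2.64 and 1.58 against 10.6 and 15.8 CPM. No tdTomato+ value came near a ZsGreen+ value, and the level was 6.26-fold lower in tdTomato+ cells, with a log2 fold change of -2.65 (SE 0.42, edgeR adjusted p = 0.0915). DESeq2 called it (adjusted p = 8.64e-06), as did edgeR without a filter on low counts (adjusted p = 0.0179). Without 1 library the log2 fold change lay between -2.30 and -3.06 and it was called only without ZsGreen+ replicate 1 (edgeR adjusted p = 0.0227). The lymphatic markers Reln, Mmrn1 and Thy1, given above, were lower in the same libraries, among 6 of the 7 lymphatic markers, and their part in the Tbx1 value was not tested. RefSeq places Tbx1 at 18580979 to 18590671 on chromosome 16 of GRCm38, while the deposited table names another contig in place of the chromosome.

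**Figure D4:**
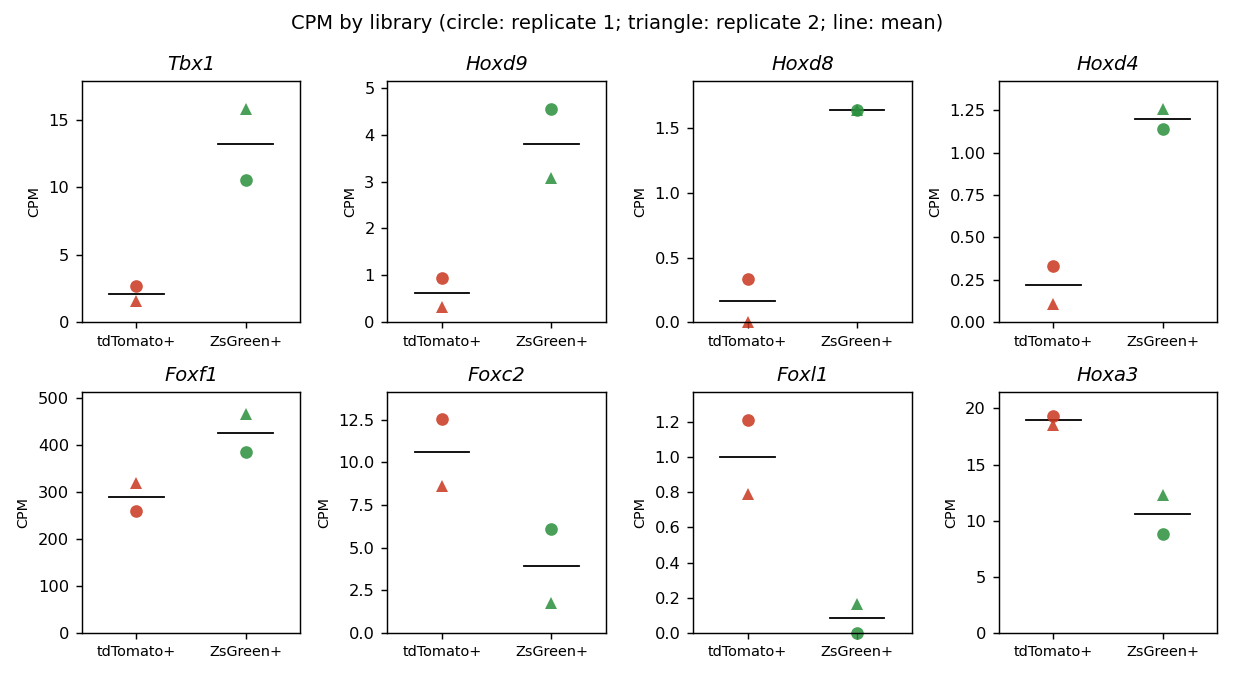
CPM by library (linear axes from 0) of 8 genes, with the group mean as a line. Tbx1, Hoxd9, Hoxd8, Hoxd4 and Foxf1 are lower and Foxc2, Foxl1 and Hoxa3 higher in both tdTomato+ libraries; no gene shown passed the edgeR test over all genes.

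The start regions of Tbx1, Hoxd4, Hoxd8 and Hoxd9 in the RefSeq promoter table (GRCm38.p6) are shown because these 4 had the lowest log2 fold changes of the tested genes, and they were picked after their values were seen. Each runs 5′ to 3′ on the gene's strand from 250 bases before the annotated start to 50 after it. Capitals mark matches, on either strand, to the forkhead sequence TGTTTAC, the T-box sequence AGGTGTGA, the sequence TGATNNAT bound by Hox with Pbx proteins, the start-site element TATAAA or the promoter element CCAAT. No motif contains another, and matches that overlap would appear as one run of capitals.
Hoxd4, chr2:74721728-74722027, plus strand: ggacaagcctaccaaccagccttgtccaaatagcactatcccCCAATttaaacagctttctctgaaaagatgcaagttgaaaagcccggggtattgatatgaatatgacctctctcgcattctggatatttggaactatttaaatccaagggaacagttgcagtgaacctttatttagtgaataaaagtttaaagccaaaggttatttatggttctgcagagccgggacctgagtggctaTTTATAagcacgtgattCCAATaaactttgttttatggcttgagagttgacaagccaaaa
Hoxd8, chr2:74704365-74704664, plus strand: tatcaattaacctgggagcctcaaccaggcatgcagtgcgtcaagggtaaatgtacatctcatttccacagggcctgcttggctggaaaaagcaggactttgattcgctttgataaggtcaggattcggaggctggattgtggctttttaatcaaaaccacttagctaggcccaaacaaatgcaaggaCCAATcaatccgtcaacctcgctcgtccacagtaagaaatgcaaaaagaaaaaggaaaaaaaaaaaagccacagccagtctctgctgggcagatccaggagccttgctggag
Hoxd9, chr2:74697513-74697812, plus strand: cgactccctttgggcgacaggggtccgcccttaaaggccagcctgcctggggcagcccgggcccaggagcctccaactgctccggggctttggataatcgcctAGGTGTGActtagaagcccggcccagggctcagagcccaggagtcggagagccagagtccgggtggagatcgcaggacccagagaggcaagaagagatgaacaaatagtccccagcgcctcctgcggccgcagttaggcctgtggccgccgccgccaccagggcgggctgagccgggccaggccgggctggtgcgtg
Tbx1, chr16:18590622-18590921, minus strand: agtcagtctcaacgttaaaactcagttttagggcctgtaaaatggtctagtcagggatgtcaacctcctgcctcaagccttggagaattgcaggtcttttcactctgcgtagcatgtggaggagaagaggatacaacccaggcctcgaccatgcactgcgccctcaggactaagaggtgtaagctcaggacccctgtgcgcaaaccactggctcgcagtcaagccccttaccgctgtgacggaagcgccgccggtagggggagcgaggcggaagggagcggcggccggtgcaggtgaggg

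The 4 windows share little. Hoxd4 has a TATAAA match and 2 CCAAT matches, Hoxd8 has 1 CCAAT match, Hoxd9 has 1 match to the T-box sequence, and the Tbx1 window shown and its other listed start hold none of the 5 motifs. Hoxd9 and Tbx1 are rich in G and C, at 68.3% and 58.3%, with 20 and 16 CpG pairs, and Hoxd4 and Hoxd8 are not, at 39.7% and 46.7% with 4 and 6. The median over 32544 windows of the same length was 53% and 7. Of those windows 3.66% hold the forkhead, 1.28% the T-box and 8.79% the Hox with Pbx sequence, while 13.6% hold TATAAA and 37.4% hold the CCAAT element. Among 50 windows of 44 matched genes of the 3 families the shares were 2%, 2%, 10%, 14% and 50%. A match is a description of the letters and shows no binding.

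Tbx3 was the main T-box gene of these cells, with 80.9% to 88.7% of the summed TPM of the 10 Tbx rows. It encodes a repressor that restrains cell cycle inhibitors. It stood at 52.12 and 39.74 TPM in tdTomato+ and 53.73 and 67.55 TPM in ZsGreen+ libraries. The groups lay next to each other without overlap, at a log2 fold change of -0.55 (SE 0.19) with an edgeR adjusted p of 0.421. Tbx4, a lung mesenchyme factor mutated in some heritable pulmonary hypertension, stood at 2.74 and 3.08 TPM against 1.77 and 1.97 TPM, and its higher values in tdTomato+ libraries stood beside the higher fibroblast markers given above, whose part was not tested. Tbx5, the partner of Tbx4 in the lung bud, stayed at or under 0.51 TPM in every library.

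Foxf1 was the most abundant of the 71 genes and lay lower in both tdTomato+ libraries. It is needed for the lung capillary bed, and its loss in infants causes alveolar capillary dysplasia. It stood at 189.08 and 219.79 TPM in tdTomato+ and 226.12 and 322.23 TPM in ZsGreen+ libraries. Both tdTomato+ values lay below both others, with a log2 fold change of -0.56 (SE 0.21, edgeR adjusted p = 0.487). Among 6 general capillary markers, whose sum was 4718 and 4911 TPM against 5637 and 5126 TPM, 2 lay lower and 1 higher without overlap. Gpihbp1 was one of the lower, at 243 and 313 against 709 and 730 CPM, and of the aCap markers 5 of 6 lay lower, as given above. The part of both lists in the Foxf1 value was not tested. Of 10 endothelial genes listed as dependent on Foxf1, 0 were called, the median log2 fold change was -0.35, and 5 lay lower and 1 higher without overlap, beside 18.2% lower and 19.9% higher over all genes tested. Pdgfb, which recruits mural cells, was at -0.62 (SE 0.20) and the receptor Kit at -0.57 (SE 0.21), with edgeR adjusted p of 0.407 and 0.467. The 11 endothelial markers share Kdr, Tek, Tie1, Pecam1 and Cdh5 with the Foxf1 list. Of these markers, 5 lay lower and 2 higher without overlap, with a median log2 fold change of -0.14.

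Foxc2 and Foxl1 are the next of the 71 genes after Foxf1 on chromosome 8, and their values differed in direction from that of Foxf1. Genes outside the 71 were not looked for between them. Foxl1 passed the filter on low counts only through the tdTomato+ libraries, so its direction was fixed once it was tested. Foxf1 lies at 121084386 to 121088154, Foxc2 begins after a gap of 28016 bases at 121116171, and Foxl1 after a further 8789 bases at 121127685. Foxc2, needed for lymphatic valves and arterial fate, stood at 8.05 and 5.25 TPM in tdTomato+ and 3.14 and 1.07 TPM in ZsGreen+ libraries. Both tdTomato+ values were above both others, with a log2 fold change of 1.44 (SE 0.58, edgeR adjusted p = 0.544). The ZsGreen+ libraries differ here. Leaving out ZsGreen+ replicate 1 moved the log2 fold change to 2.59 (edgeR adjusted p = 0.0439), and leaving out replicate 2 moved it to 0.80 (edgeR adjusted p = 0.398). The ratio of Foxf1 to Foxc2 TPM was 23.5 and 41.9 in tdTomato+ and 72 and 301 in ZsGreen+ libraries.

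Foxl1, a factor of subepithelial mesenchyme that is named here after its values were seen, had 22 and 15 counts in tdTomato+ and 0 and 3 counts in ZsGreen+ libraries. At 0.71 and 0.44 TPM its tdTomato+ levels did not reach the limit used for expression. The fitted log2 fold change of 3.43 (SE 1.16, edgeR adjusted p = 0.429) depends on how a count of 0 is treated: it was 2.56 without ZsGreen+ replicate 1 and has no usable size without ZsGreen+ replicate 2, when the only ZsGreen+ count left is 0. Foxf2, the mesenchymal relative of Foxf1, stayed at or under 0.9 TPM with overlapping groups. Fibroblast markers were higher in the same libraries, as given above, and their part in the Foxl1 and Foxc2 values was not tested. Arterial markers went both ways and 6 of 7 lymphatic markers lay lower, and the part of these lists in the Foxc2 value was not tested.

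Foxc1, which acts with Foxc2 in vessels, stood at 2.9 and 6.18 TPM in tdTomato+ and 1.47 and 2.53 TPM in ZsGreen+ cells. No overlap was seen, with a log2 fold change of 1.07 (SE 0.46, edgeR adjusted p = 0.582). Without tdTomato+ replicate 2 it was 0.39, and without tdTomato+ replicate 1 it was 1.54. Of 10 vascular genes listed as dependent on Foxc factors, 0 were called and the median was -0.05. Without overlap, 3 lay higher and 3 lower, beside 19.9% and 18.2% of all genes tested. The arterial Notch effector Hey2 was at 1.96 (SE 0.38) and the integrin Itgb3 at 0.68 (SE 0.18), while Flt4, the lymphatic VEGF receptor, was at -1.04 (SE 0.20), with edgeR adjusted p of 0.144, 0.28 and 0.144.

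Foxo1 was the leading FoxO gene, with 54.9% to 70.5% of FoxO TPM. It stood at 57.79 and 55.04 TPM in tdTomato+ and 37.34 and 39.78 TPM in ZsGreen+ libraries. The libraries of each group lay close together and apart from the other group, with a log2 fold change of 0.40 (SE 0.17, edgeR adjusted p = 0.572). Foxo3 and Foxo4, also regulated by Akt, overlapped between groups in CPM. Foxo3 was at 6.28 and 5.72 against 5.62 and 5.59 TPM, and Foxo4 at 23.51 and 16.91 against 24.8 and 20.33 TPM. Their log2 fold changes were -0.06 (SE 0.21) and -0.34 (SE 0.25). Foxo6 rested on 1 library, with 66 counts in ZsGreen+ replicate 2 and 6 to 13 in the others. Its log2 fold change of -1.99 (SE 1.04, edgeR adjusted p = 0.703) became 0.19 without that library.

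Genes around FoxO showed no call. Of 18 FoxO target genes 0 were called and the median log2 fold change was 0.11. Without overlap, 4 lay higher and 2 lower, beside 19.9% and 18.2% of all genes tested. Irs2, an insulin receptor substrate, was at 1.29 (SE 0.38), Txnip, a thioredoxin inhibitor, at -0.34 (SE 0.19) and Pdk4, a brake on pyruvate oxidation, at 0.70 (SE 0.39), with edgeR adjusted p of 0.327, 0.732 and 0.732. Of 12 kinases and co-repressors acting on forkhead factors 0 were called, with a median of -0.07. The co-repressors Tle2 and Tle3 were at 0.51 (SE 0.22) and 0.38 (SE 0.18), and the kinase gene Akt1 at -0.57 (SE 0.30), with edgeR adjusted p of 0.581 to 0.711.

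Foxp1, a repressor used widely in lung and lymphocytes, held 91.9% to 96.4% of FoxP TPM. It stood at 132.9 and 126.36 TPM in tdTomato+ and 91.42 and 133.01 TPM in ZsGreen+ libraries, with overlap. Foxp4, its relative in lung epithelium, stood at 11.55 and 9.45 TPM against 6.58 and 4.8 TPM without overlap (log2 fold change 0.71, SE 0.29, edgeR adjusted p = 0.544). Of the alveolar type 2 markers 6 of 7 lay higher in the same libraries, as given above, and their part in the Foxp4 value was not tested. RefSeq places Foxp4 at 47867133 to 47924632 on chromosome 17 of GRCm38, while its deposited row names another contig in place of the chromosome. Foxp3, the factor of regulatory T cells, never passed 2.12 estimated counts, and Tbx21, the T-bet gene of T and NK cells, never passed 4. The 8 T cell markers summed to 32.5 and 18.8 TPM in tdTomato+ and 13.2 and 9.92 TPM in ZsGreen+ libraries.

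Foxm1, which drives genes of mitosis, stood at 6.04 and 8.35 TPM in tdTomato+ and 3.55 and 4.72 TPM in ZsGreen+ libraries. Both tdTomato+ values were above both others, at a log2 fold change of 0.67 (SE 0.28, edgeR adjusted p = 0.571). Of 16 Foxm1 target genes 0 were called and their median log2 fold change was 0.38. Ccnb2, a mitotic cyclin, was at 0.52 (SE 0.26), the survivin gene Birc5 at 0.53 (SE 0.31) and the proliferation marker Mki67 at 0.74 (SE 0.48), with edgeR adjusted p of 0.668, 0.762 and 0.783. Of the 16, 2 lay higher and 0 lower without overlap, beside 19.9% and 18.2% of all genes tested.

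The remaining expressed forkhead genes belong to broadly used subfamilies. Foxn3, a checkpoint repressor, stood at 33.91 and 28.18 TPM in tdTomato+ and 23.93 and 31.72 TPM in ZsGreen+ cells. Foxn2 stood at 9.87 and 10.66 against 6.58 and 10.44 TPM. Foxj2 was at 17.7 and 16.32 against 13.84 and 15 TPM, and Foxj3 at 12.09 and 8.61 against 8.77 and 9.84 TPM. The FoxK genes, which restrain autophagy genes, were most variable between the ZsGreen+ libraries. Foxk1 stood at 9.46 and 11.73 against 9.27 and 15.84 TPM, and Foxk2 at 9.08 and 8.74 against 6.95 and 14.85 TPM. Of these 6, the groups in CPM overlapped for all but Foxj2, whose log2 fold change was 0.09 (SE 0.18).

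Factors that define other lung cells were low. Foxa1, Foxa2 and Foxa3, the pioneer factors of endoderm-derived epithelium, never passed 8 counts in a library. Alveolar type 2 marker RNA was nevertheless present at the levels given above. Foxj1, the master gene of motile cilia, stood at 1.01 and 1.3 TPM in tdTomato+ and 0.24 and 1.32 TPM in ZsGreen+ cells, with overlap. The 7 ciliated cell markers summed to 49.5 and 31.1 against 59.4 and 48.4 TPM, most of it Tppp3, while Dnah5 and Mcidas stayed at or under 0.29 TPM. Tbx18, a marker of mural cells, and Tbx15 had no count, and Tbx20, a heart factor, had 1 count in 1 library.

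The partners of Hox proteins were present in both groups but for Pbx4, which never held over 2 counts. Of 9 genes of the TALE class, the homeodomain cofactors that bind DNA together with Hox proteins, 8 passed the filter and 0 were called. Their median log2 fold change was 0.21. Of the 8, 3 lay higher and 1 lower without overlap, beside 19.9% and 18.2% of all genes tested. Meis2 was the most abundant, at 50.33 and 33.27 TPM in tdTomato+ and 29.02 and 31.32 TPM in ZsGreen+ cells. Meis1 was at -0.61 (SE 0.24) and Meis3 at 1.23 (SE 0.50) on the log2 scale, with edgeR adjusted p of 0.54 and 0.551.

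Polycomb and trithorax group genes, which keep Hox clusters silent or active, gave 0 calls among 27 tested, with a median log2 fold change of 0.05 and no unadjusted p under 0.05. Cbx6, Pcgf2 and Kdm6b had the smallest p, at 0.29 (SE 0.17), 0.31 (SE 0.20) and 0.43 (SE 0.31), with edgeR adjusted p of 0.762, 0.78 and 0.817. Retinoic acid induces low-numbered Hox genes in the embryo. Of 17 genes of its signalling 13 were tested and 0 called, with a median of 0.00. The enzyme gene Aldh1a3 rested on 1 library, at 9.85 CPM in tdTomato+ replicate 1 and at or under 0.633 CPM in the others.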

How the data were processed

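Per the labels' protocols, libraries were made with TruePrep kits after RNeasy Micro extraction and Discover-sc WTA amplification of under 4 µL of RNA. Amplification without molecular identifiers means that counts are not independent molecules. RSEM 1.3.1 and DESeq2 1.4.5 are named in the submitters' processing notes, with genome mm10 (GRCm38). Aligner and strand setting: not given in the sources used here.

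Deposited estimated counts, called read counts per the file headers, were rounded for tests. In each library 16.2% to 17.9% are not whole numbers, but those of 65 of the 71 genes are. The TPM values are as the authors deposited them. The authors' deposited FPKM and normalized counts, a signal scaled by library, were not used.

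The main test was edgeR 4.0.16 (R 4.3.3; two-sided quasi-likelihood F-test, TMM factors of 0.927 to 1.045, filterByExpr with a minimum count of 10) over all genes and 4 libraries, with Benjamini-Hochberg adjustment over the 13177 genes tested. SE is the size of the log2 fold change divided by the root of the F statistic. CPM uses TMM-scaled library sizes. The smallest exact permutation p for 2 against 2 libraries is 0.333, so none is given. Counts of these 13177 genes were simulated with changed genes at 5 CPM or more, and 6 unchanged genes were called. The share recovered was 30% at a 2-fold change, 94% at 4-fold and 100% at 8-fold. Lower genes were not simulated. Spread was drawn from its trend with expression level, without gene-specific spread or an effect shared by replicate number. The shares may thus be too high for these data, in which Tbx1, 6.26-fold lower in tdTomato+ cells, was not called.

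The 71 genes and all lists were chosen with earlier results of these data known. Expressed genes are named with their TPM, and a few genes, though counted, are not reported by name or plotted here. Log2 fold changes are given for called genes, of which there were none, and for the 12 lowest p among tested genes that average 1 CPM or more, beside up to 3 genes per list by the same order and minimum. Hoxd4, Hoxd8 and Foxl1, and other log2 fold changes or levels outside this rule, were named after their values were seen. Gene spans and promoter sequences are from RefSeq (GRCm38.p6), and 44 of the 71 genes had a promoter entry. The alternatives tried were upper quartile or RLE factors, limma-voom (limma 3.58.1), DESeq2 1.42.0, no filter, a minimum count of 30, limma on log2 TPM plus 1 or plus 0.1, a replicate block, and leaving out each library.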

Additional observations from a re-analysis of the deposited data

How the results depend on the processing

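The count of 0 called Hox, Tbx and Fox genes became 1 with DESeq2 and 1 without a filter on low counts (Tbx1 each time), and between 0 and 2 when 1 library was left out. The 2 were Tbx1 and Foxc2, without ZsGreen+ replicate 1. An arm left with 1 library is assumed to vary like the other. Over all genes 40 calls became 330 with DESeq2, 128 without a filter, 22 on log2 TPM plus 0.1, and 4 (without tdTomato+ replicate 2) to 304 (without ZsGreen+ replicate 1) with 1 library left out. Of 185 refits of the 15 genes given with a log2 fold change by rule or by choice, 173 kept direction and side of the threshold, 11 passed it, and 1 changed sign: Foxo6, between -2.81 (without ZsGreen+ replicate 1) and 0.19 (without ZsGreen+ replicate 2). On log2 TPM the median of all genes shifted to 0.12 (plus 1) or 0.13 (plus 0.1), so TPM-based changes are read relative to it. The number of expressed genes was 34 at 0.5 TPM, 27 at 2 TPM and 38 by a count of 10 or more in both libraries of a group; leaving out a library, chosen after seeing the data, gave 32 or 33.

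Replicate numbers are shared by the groups, but the labels do not say that they mark a mouse or batch. Deviations of same-numbered libraries correlated at 0.455 over 13177 genes. With the number as a replicate block edgeR called 934 genes (7.09%), all 40 genes called by the main test among them. Of the 40 Hox, Tbx and Fox genes tested, 7 were called: Hoxa3, Foxc2, Tbx1, Hoxd8, Hoxd9, Hoxb5 and Foxl1. Hoxd8 passed the filter on low counts only through the ZsGreen+ libraries and Foxl1 only through the tdTomato+ libraries, so their directions were fixed once tested. With no label that ties the numbers, these calls are given here only.

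Depth limits Hoxd4, Hoxd8 and Foxl1, which have at most 30 counts in any library.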
